A study of Mus musculus with 2 samples.

Results

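Pf4-dominant megakaryocyte progenitors are described here: 141 cells of 14068 kept barcodes, 93 of 7098 in the control library and 48 of 6970 in the library labelled Utx-deleted. A member had at least 5 UMIs (unique molecular identifiers, that is, counted RNA molecules) of Pf4, more UMIs of Pf4 than of Car1, and under 1% of its UMIs from the late neutrophil genes Ltf, Camp, Ngp, S100a8, S100a9 and Lcn2. Kept barcodes had at least 500 genes and under 10% mitochondrial UMIs, and did not carry both hashtags at 100 or more UMIs within 5-fold of each other. Pf4, Car1 and the 6 neutrophil genes therefore chose the cells, and their values are descriptions.

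The cells were CD45.2+Kit+ mouse bone marrow cells collected 10 weeks after a transplant. CITE-seq read each cell's RNA together with the DNA-barcoded antibodies bound to its surface. Kit (CD117) is the receptor for stem cell factor, and CD45.2 is the form of the blood cell protein CD45 by which cells of one mouse strain are told from another. The groups were 1 control library and 1 library labelled Utx-deleted, where UTX is the histone demethylase encoded by Kdm6a, and the question put by the series title concerns the MLL3 and MLL4 complexes in which UTX is found. The labels do not give the control's genotype, the deleting allele or Cre, the recipients, the number of mice pooled or what the 2 hashtags of each library mark.

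Megakaryocytes are the large bone marrow cells that shed platelets. They arise from stem cells and from progenitors shared with the erythroid lineage, depend on the hormone thrombopoietin, and use the transcription factors Gata1, Fli1, Runx1 and Gfi1b. On the way they load alpha granules with proteins such as Pf4 (platelet factor 4) and Vwf, and put the fibrinogen receptor, made of Itga2b (CD41) and Itgb3 (CD61), and the von Willebrand factor receptor, made of Gp1ba, Gp1bb, Gp9 and Gp5, on their surface.

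Each group held a single library, so no comparison between the groups could be tested. All differences are between these 2 libraries, and the 95% intervals (exact Poisson or Clopper-Pearson, and Newcombe for a difference of shares) cover counting error only. Each library held 2 hashtag populations, which are given as a picture of how far values vary within a library; they are not replicates. The members' median depth was 23540 UMIs (3787 to 63456) in control and 33240 (16088 to 81499) under the Utx-deleted label, while all kept barcodes had medians of 12450 and 11360. Summed over members the control held 2445218 UMIs and the other library 1791450. Barcodes found in both libraries numbered 17, and 0 of them was a member. Kdm6a itself stood at 168 CPM (UMIs per 1000000 UMIs of the summed members, from 410 UMIs) in control and 198 CPM (354 UMIs) in the library labelled Utx-deleted, a log2 ratio of 0.24 (0.03 to 0.45). Reads from the 3′ end of a transcript do not show whether an internal exon was removed, so this level does not check the label.

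The members carried the markers given for them. Itga2b was detected in 90 of 93 control members and 46 of 48 members labelled Utx-deleted, Rab27b, a GTPase of platelet granule release, in 89 and 47, and Cavin2, a caveolar coat protein, in 81 and 44. All 3 were found together in 79 control members and 41 of the others, and none of them in 2 and 0. Late neutrophil-rich cells of the control library, with a shallower median of 9901 UMIs, had a Pf4 UMI in 1.21%, Itga2b in 0.684%, Rab27b in 0.313% and Cavin2 in 0.156% of cells. The CD41 tag, an antibody readout of the Itga2b protein that the rule did not use, reached 50 UMIs in 85 of 93 and 48 of 48 members, but in 0 of 112 and 1 of 19 Car1-dominant cells (at least 5 Car1 UMIs and at least as many as Pf4). Of the remaining cells under the neutrophil limit, 92 of 1503 and 46 of 1491 also reached 50.

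Some platelet genes were scarce in the members and others were not. Tubb1, the platelet beta-tubulin, had 1 UMI over the control members and 0 in the other library. Gp6, the collagen receptor, had 0 in each, and Ppbp, a platelet chemokine, had 19 and 7. A count of 0 allows up to 3 UMIs over a library's members. With 50 or more Pf4 UMIs, Gp5 was found in 95.1% of control members and 85.2% of the others. Vwf was found in 95.1% and 81.5% of the same members. Genes of the stem cell list were present, with Mecom at 314.5 and 257 CPM and at least 1 UMI of Hlf, a stem cell transcription factor, in 53 of 93 and 28 of 48 members (14.4% and 8.68% of late neutrophil-rich cells). Erythroid Car1 was absent from 86 of 93 and 48 of 48 members.

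Promoters of 4 of these genes are shown because Pf4 chose the cells, Itga2b encodes CD41, the tag that was higher in the library labelled Utx-deleted, and Gp5 and Gp9, partners in 1 receptor, were both lower in that library. The sequences are the 250 bases upstream of the RefSeq start on GRCm38.p6, written along the gene's strand, with every GATAA or TTATC and every GGAA or TTCC in capitals. These are the core letters, on both strands, bound by GATA and ETS factors. The windows are chr5:90772185-90772434 (+) for Pf4, chr11:102469884-102470133 (-) for Itga2b, chr16:30310782-30311031 (-) for Gp5 and chr6:87777820-87778069 (+) for Gp9.
Pf4: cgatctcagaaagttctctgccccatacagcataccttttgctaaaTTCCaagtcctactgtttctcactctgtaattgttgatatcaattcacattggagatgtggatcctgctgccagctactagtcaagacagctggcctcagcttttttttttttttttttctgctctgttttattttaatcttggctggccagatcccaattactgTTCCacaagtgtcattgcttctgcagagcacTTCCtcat
Itga2b: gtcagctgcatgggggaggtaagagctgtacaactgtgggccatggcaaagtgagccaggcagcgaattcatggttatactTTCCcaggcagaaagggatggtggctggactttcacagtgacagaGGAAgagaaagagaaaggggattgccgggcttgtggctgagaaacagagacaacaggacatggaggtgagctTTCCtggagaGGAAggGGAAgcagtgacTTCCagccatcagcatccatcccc
Gp5: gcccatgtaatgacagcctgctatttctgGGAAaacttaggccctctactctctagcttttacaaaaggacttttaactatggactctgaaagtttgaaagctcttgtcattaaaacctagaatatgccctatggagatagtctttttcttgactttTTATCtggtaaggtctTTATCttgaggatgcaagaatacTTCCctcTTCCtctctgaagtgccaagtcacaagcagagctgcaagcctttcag
Gp9: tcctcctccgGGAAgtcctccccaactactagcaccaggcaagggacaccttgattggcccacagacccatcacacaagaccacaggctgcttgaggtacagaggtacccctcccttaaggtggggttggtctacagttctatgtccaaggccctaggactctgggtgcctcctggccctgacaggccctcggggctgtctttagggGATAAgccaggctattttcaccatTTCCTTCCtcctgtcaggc
The GATA letters occurred 2 times in the Gp5 window and 1 time in that of Gp9, and 0 times in those of Pf4 and Itga2b; the ETS letters occurred 3, 3, 3 and 6 times. Of 32851 promoter windows of this length in the RefSeq table, 22.6% held the GATA letters and 93.5% the ETS letters. Of the windows of tested genes 14.1% held the GATA letters, and over the 7 megakaryocyte and platelet lists the share ran from 1 of 29 (3.45%, cytoskeleton) to 8 of 24 (33.3%, surface receptors). A match of letters is a description of the window and not a binding site.

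Pf4-dominant cells were less frequent in the library labelled Utx-deleted. They made up 1.31% of kept barcodes in control (1.06 to 1.60) and 0.689% in the other library (0.508 to 0.912), a difference of -0.622 percentage points (-0.959 to -0.294), or 1.90-fold. With each cell thinned to 3000 UMIs the difference was -0.216 points, with an interval from -0.465 to 0.0265 that covers 0. The hashtag populations were uneven. Under hashtag 1 the share was 1.84% in control and 0.614% in the library labelled Utx-deleted, and under hashtag 2 it was 0.844% and 0.762%, a difference of -0.0817 points with an interval from -0.504 to 0.337. Control hashtag 1 stood apart from the other 3 populations. Late neutrophil-rich cells also differed in share between the hashtags, at 70.0% and 79.0% of kept barcodes under hashtag 1 and 74.6% and 71.7% under hashtag 2, and the part of that in the share of Pf4-dominant cells was not tested. Among barcodes under the neutrophil limit the share of Pf4-dominant cells was 5.45% in control and 3.08% in the library labelled Utx-deleted. Car1-dominant cells, the erythroid-biased neighbours, had a wider gap, at 1.58% and 0.273% of kept barcodes (5.79-fold), and it was present under both hashtags (1.63% and 0.184%, and 1.52% and 0.354%). Whether these folds differ from each other beyond replicate error cannot be tested with 1 library a group.

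**Figure D1:**
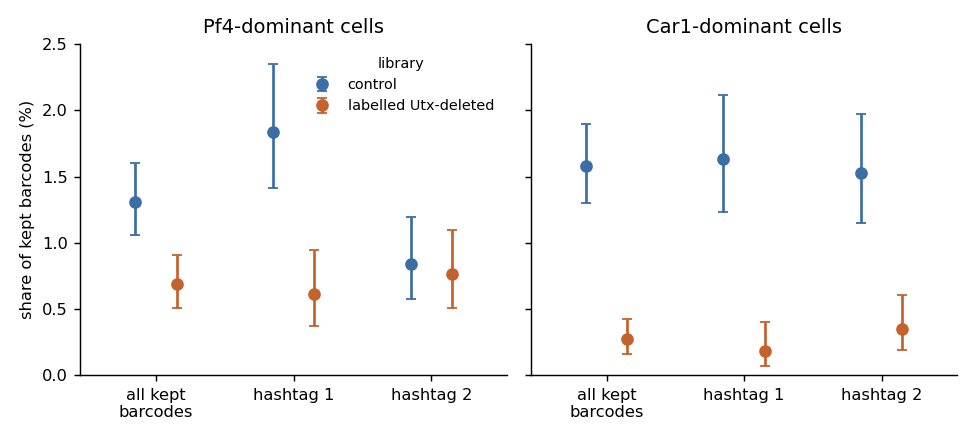
Share of kept barcodes (percent, vertical axis) that were Pf4-dominant (left) or Car1-dominant (right), over each whole library and by hashtag; bars are 95% Clopper-Pearson intervals for counting error only. Control hashtag 1 has the highest Pf4-dominant share, 1.84%, while the 2 libraries overlap under hashtag 2.

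The CD41 tag was higher on members of the library labelled Utx-deleted, and the CD150 and CD48 tags were lower. CD41 ranged from 11 to 1388 UMIs per member in control, with a median of 182, and from 77 to 1523 in the other library, with a median of 383.5. Both hashtag populations labelled Utx-deleted, with medians of 377.5 and 411.5, were above both of control, 215 and 128, although single members overlapped widely. As a share of all UMIs from the 13 tags other than hashtags, CD41 was 20.8% in control and 43.8% in the other library, a log2 ratio of 1.08 (1.05 to 1.10), while the median sum of the 13 tags was 1080 and 1002. Itga2b RNA, which encodes CD41, was at 315 CPM in control (332 and 283 by hashtag) and 279 in the library labelled Utx-deleted (308 and 258), a log2 ratio of -0.17 (-0.34 to -0.01). As shares of their own totals, the tag and the RNA of the same gene lay on opposite sides of 0. The RNA levels of the hashtag populations overlapped between the libraries. Counted per cell, Itga2b RNA ran the other way. Among members with no Car1 UMI its median was 7 UMIs in control and 8.5 in the other library. Members of the other library were also deeper.

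CD150, the SLAM receptor encoded by Slamf1, had a median of 107 tag UMIs per member in control (15 to 359) and 48.5 in the library labelled Utx-deleted (1 to 399), with hashtag medians of 114.5 and 93 against 65.5 and 40.5. The log2 ratio of its tag share was -0.65 (-0.71 to -0.60). Slamf1 RNA was low in the members, at 63 UMIs (25.8 CPM) and 17 UMIs (9.49 CPM), and so lay in the direction of its tag. CD48, a SLAM family protein of committed progenitors, had medians of 410 in control (3 to 2264) and 201 in the other library (6 to 934), and its share had a log2 ratio of -0.62 (-0.65 to -0.59). Tag shares add up to a fixed total, so a larger CD41 share lowers the others; in raw UMIs the mean per member was also lower for CD150, 114 against 67.3, and CD48, 467.5 against 282.

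The remaining tags were low in each library or uneven between hashtags. CD117 had medians of 167 and 116.5 UMIs, with a log2 share ratio of -0.12 that was -0.32 under hashtag 1 and 0.00 under hashtag 2. Sca1 had medians of 11 and 6 (log2 share ratio -1.14), but 3 control members held 666 of its 1761 control UMIs, and without them the ratio was -0.50. These 3 had 5 to 9 Pf4 UMIs, 7 to 16 UMIs of the stem cell gene Hlf and CD41 tags of 11 to 39 UMIs. Among them were the 2 control members with none of Itga2b, Cavin2 and Rab27b. Whether these 3 are megakaryocyte progenitors was not tested. CD11b, an integrin of myeloid cells, had medians of 8 and 4 (-1.22), and CD34 of 7 and 10 (0.35). CD16_32, the Fc gamma receptors, had medians of 44 and 33.5. CD135 (Flt3) had a median of 0 in each library. Several tags were also lower outside the members: in other cells under the neutrophil limit the log2 share ratio was -1.14 for CD150, -0.13 for CD48, -0.64 for Sca1 and -0.42 for CD11b, and in late neutrophil-rich cells -1.29 for CD150 and -1.05 for CD48. CD41 was at -0.31 and -0.20 in these cells. The 19 Car1-dominant cells labelled Utx-deleted were set against 112 of control: CD41 was at 0.72 (0.49 to 0.94), with -0.79 and 0.96 by hashtag and medians of 7 UMIs in control and 5 in the other library, CD150 at 0.54 (-0.81 and 0.95), CD48 at 0.08 and Sca1 at 0.05.

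**Figure D2:**
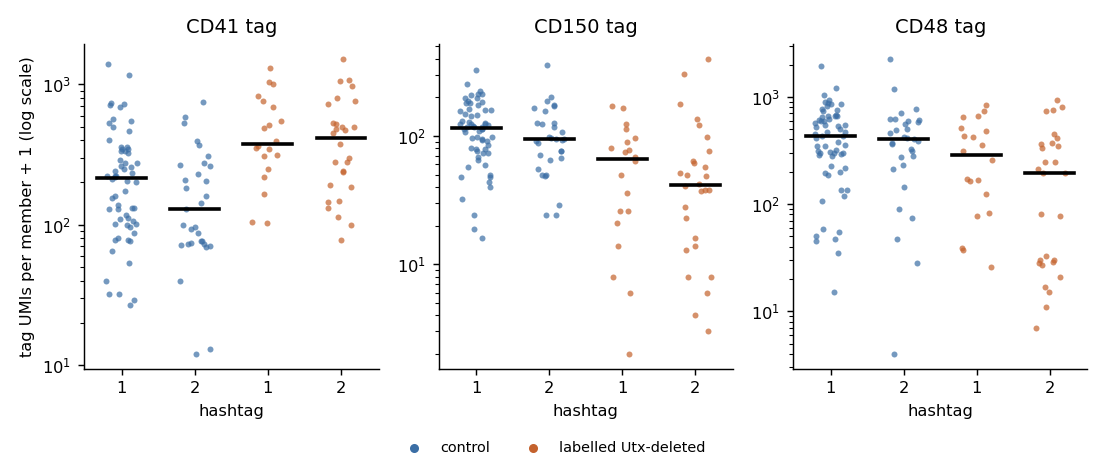
Tag UMIs per member plus 1 (log scale) for CD41, CD150 and CD48, by hashtag; each point is 1 member, blue for control and orange for the library labelled Utx-deleted, and black lines are medians. The orange CD41 medians, 377.5 and 411.5, lie above the blue ones, 215 and 128, and the order is the opposite for CD150 and CD48.

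Members spread over a wide range of Pf4. Pf4 itself ran from 5 to 448 UMIs per member in control (median 35) and from 5 to 378 in the library labelled Utx-deleted (median 63), and its summed level was 2699 and 2755 CPM. Members with 5 to 9 Pf4 UMIs numbered 18 of 93 in control and 5 of 48 in the other library, those with 10 to 49 numbered 34 and 16, and those with 50 or more 41 and 27. Just inside the limit, at 5 UMIs, lay 9 and 1 members, with median CD41 tags of 77 and 113, and just outside it, at 4 UMIs, 6 and 4 barcodes, with medians of 55 and 156.5.

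Along the range of Pf4, the surface receptor list was higher in members with more Pf4 and the stem cell list was lower. From members with 5 to 9 to those with 50 or more Pf4 UMIs, the summed surface receptor list went from 1510 to 2865 CPM in control and from 1138 to 2416 in the other library, and the stem cell list from 6516 to 4330 and from 6129 to 4557. The alpha-granule list without Pf4 did not run the same way, at 4752 and 4414 CPM in control and 4749 and 4407 in the other library, with Angpt1 at 3303 and 2378 CPM in control. The neutrophil progenitor list followed single cells, at 139.5, 167 and 1211 CPM over the 3 bins in control and 157, 1233 and 106 in the other library; 2 control members with 656 and 721 UMIs of the list lay in the highest bin, and 1 of the other library with 607 in the middle bin. Between control members with 5 to 9 and with 50 or more Pf4 UMIs, Itga2b went from 203 to 382 CPM, Vwf from 66.1 to 244, Cavin2 from 113 to 325.5 and Plek (pleckstrin, a protein kinase C substrate of platelets) from 267 to 599.6. Mecom went from 504 to 198 CPM, Kit from 259 to 122 and Car2, a carbonic anhydrase of erythroid and early progenitors, from 754 to 225. Mecom, Kit and Car2 ran the same way in the library labelled Utx-deleted, with Mecom at 392.5 and 168 CPM, Kit at 170 and 73.1 and Car2 at 405.5 and 120.5.

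The tag differences were also seen within bins of raw Pf4 UMIs, which were not matched for depth. Median depths in control and the other library were 21780 and 32630 UMIs at 5 to 9 Pf4 UMIs. They were 22350 and 31250 at 10 to 49, and 30520 and 35690 at 50 or more. At 5 to 9 Pf4 UMIs the median CD41 tag was 82 in control and 145 in the other library, where this bin held 5 members; at 10 to 49 it was 113.5 and 327, and at 50 or more 289 and 495. Within the highest bin alone the log2 ratio of the CD41 share was 0.73. CD150 medians were 94.5 and 36, 116.5 and 36, and 107 and 63 in the same order of bins. CD41 and Pf4 went together across members, with Spearman's rho of 0.63 over 93 control members and 0.56 over 48 others; these cells share a library, and rho of the CD41 tag with the sum of tags was 0.46 and 0.79. The higher depth of members in the library labelled Utx-deleted moved with the CD41 difference as well (rho of CD41 with gene UMIs was 0.33 and 0.59), and its part was not tested.

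**Figure D3:**
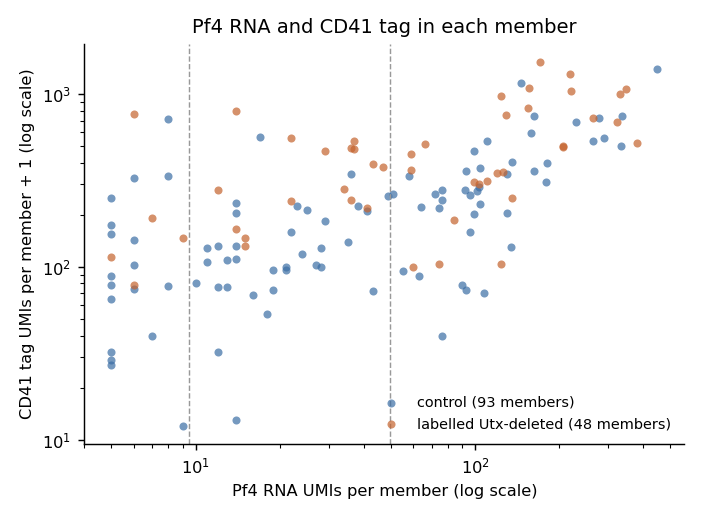
CD41 tag UMIs plus 1 against Pf4 RNA UMIs per member (both log scales), with dashed lines at the limits of the 3 Pf4 bins; blue is control and orange the library labelled Utx-deleted. CD41 is higher in members with more Pf4, and at 10 to 49 Pf4 UMIs the medians are 113.5 in control and 327 in the other library.

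Over the whole transcriptome 6417 genes had 100 or more UMIs when both libraries were added. Of these, 36 were at least 2-fold higher in members of the library labelled Utx-deleted (0.561%) and 70 at least 2-fold lower (1.09%), 1.65% in all. The balance differed by hashtag, with 19 higher and 74 lower of 4570 under hashtag 1 and 27 and 25 of 3792 under hashtag 2. For 35 (0.545%) and 68 (1.06%) of them both hashtag populations of one library also lay above both of the other, which held in either direction for 41.5% of all tested genes. The hashtag populations inside a library differed less: 5 genes were higher and 15 lower of 4710 in control, and 14 and 9 of 3616 in the library labelled Utx-deleted. The median log2 ratio of all tested genes was -0.011.

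The largest differences were lower levels of Apoe, Mrvi1 and Dlg2. Apoe, the apolipoprotein of lipid transport, was at 390 and 447 CPM in the control hashtag populations and at 45.4 and 44.2 in those labelled Utx-deleted, a log2 ratio of -3.18 (-3.55 to -2.87), or 9.07-fold. It was detected in 89 of 93 control members and in 29 of 48 others, against 3.18% and 0.975% of late neutrophil-rich cells. Dlg2, a membrane scaffold protein, stood at 333.5 and 204 CPM in control and at 38.7 and 37.4 in the other library, a log2 ratio of -2.91 (-3.31 to -2.57). Mrvi1, a substrate of cGMP-dependent kinase that restrains calcium release in platelets, had 109 UMIs in control and 8 in the other library, a log2 ratio of -3.16 (-4.57 to -2.29), and its control hashtags were uneven, at 59.3 and 16.6 CPM. The populations of the 2 libraries did not overlap for these 3 genes, which the choice of genes required. With each cell thinned to 3000 UMIs Apoe was at -2.06 and Dlg2 at -3.63, and under hashtag 2 alone Mrvi1 was at -1.89. Gene ratios with thinning, here and below, come from members chosen again by the rule on the thinned counts. They rest on fewer cells and far fewer UMIs, so they are not a check of depth alone.

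Ptger3, the prostaglandin E receptor EP3 that sensitises platelets, was at 99.9 and 98.3 CPM in control and at 22.7 and 26.9 in the library labelled Utx-deleted, a log2 ratio of -1.96 (-2.48 to -1.52). Serpinb1a, an inhibitor of neutrophil proteases, was at 88.7 and 105 CPM against 20.01 and 21.1, and its log2 ratio was -2.16. It was detected in 95.2% and 97.1% of late neutrophil-rich cells. Specc1 (-1.99), Acap1 (-1.96), the transcription factor Zfhx3 (-1.91), the water channel Aqp1 (-1.87) and Ramp1, a subunit of the calcitonin gene-related peptide receptor (-1.85), completed the 10 lowest log2 ratios by the rule of choice, which took genes whose hashtags lay apart and whose top 5 members held under 50% of the UMIs in the higher library. Thinning, which also changed the set of members, turned the ratio of Zfhx3 to 0.13. Acap1 ran from -4.15 with 50 or more Pf4 UMIs to -1.30 under hashtag 2 alone, and Ramp1 was at -2.88 with 50 or more Pf4 UMIs. Of control late neutrophil-rich cells 67.7% had a UMI of Zfhx3, 61.2% of Specc1, 53.8% of Acap1 and 46.9% of Ramp1, and the part of RNA from such cells was not tested.

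The highest log2 ratios under the same rule were those of Ldlrad4, a negative regulator of TGF-beta signalling, at 16.2 and 16.6 CPM in control, against 62.7 and 85.4 in the other library (2.19, 1.70 to 2.76), of the long noncoding RNA 2610035D17Rik (2.11) and of the zinc finger gene Zfp827 (2.06). Chsy3, a chondroitin sulfate synthase, was at 64.3 and 45.0 CPM in control and at 287 and 163 in the other library, a log2 ratio of 1.89 (1.62 to 2.19). Pvt1, a noncoding RNA beside Myc, followed with 1.79 and the ubiquitin ligase Mid1 with 1.77. Mt1, a metal-binding metallothionein, was at 45.0 and 30.8 CPM against 109 and 122, a log2 ratio of 1.53. Hook1 (1.43), the potassium channel Kcnj5 (1.43) and Zfp948 (1.34) made up the 10. C77080 (1.71), Gm30382 (1.40) and Eda (1.37) were left out by the limit on the top 5 members. Keeping barcodes with both hashtags moved Ldlrad4 to 1.36, hashtag 2 alone moved Zfp948 to 0.70, and thinning gave 1.43 for 2610035D17Rik, 1.36 for Zfp827 and 0.79 for Mt1. Kcnj5 was close to absent from other cells under the neutrophil limit, at 0.0987 and 0.307 CPM, against 27.4 and 74.2 CPM in the members.

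**Figure D4:**
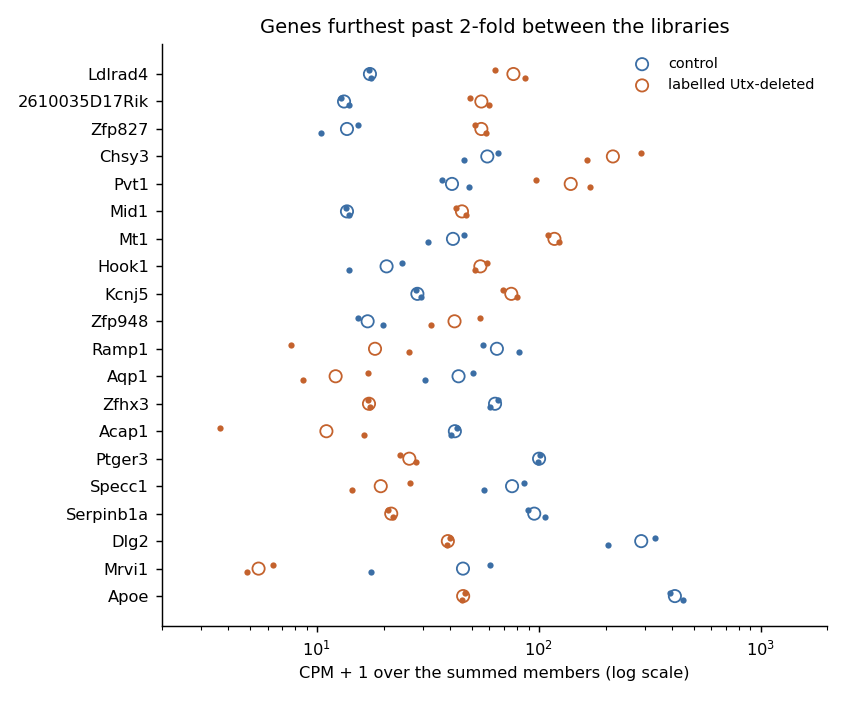
CPM plus 1 over the summed members (log scale) of the 10 genes with the highest and the 10 with the lowest log2 ratio by the rule of choice; circles are whole libraries and dots their 2 hashtag populations, blue for control and orange for the library labelled Utx-deleted. For each gene drawn the dots of the 2 libraries do not overlap, which the choice of genes required; Apoe has the widest gap among the lower genes, 409.8 against 44.7 CPM.

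Many of these differences were shared with cells outside the members. Of the 20 genes, 18 had 100 UMIs or more in the 1503 and 1491 other cells under the neutrophil limit. Of these 18, 11 were past 2-fold the same way there. In Car1-dominant cells it was 2 of 9. Over all 5925 genes tested in Car1-dominant cells, 123 were past 2-fold downwards and 35 upwards. In the other cells Apoe was at 167 and 12.6 CPM (log2 ratio -3.73), Ptger3 at 18.7 and 0.946 CPM (-4.27), Zfhx3 at 32.2 and 8.95 CPM (-1.84) and Mt1 at 80.8 and 221 CPM (1.45). Mrvi1 was at -2.43 and Dlg2 at -1.70 there. Others differed less: Ldlrad4 had a log2 ratio of -0.32, Ramp1 of 0.06 and Hook1 of -0.01. Of the 68 lower genes that were measured in the other cells the median log2 ratio was -0.738 and 28 were at least 2-fold lower, and of the 35 higher genes the median was 0.555, with 9 past 2-fold upwards and 2 downwards. Over all 12290 genes tested in those cells the median was -0.066, with 4.43% at least 2-fold lower and 1.45% at least 2-fold higher. How far the libraries differ between kinds of cell was not tested.

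Among the genes of the megakaryocyte and platelet lists, 4 of the 5 past 2-fold were in the list of surface adhesion and platelet receptors. Over 7 lists of such genes (161 genes, 142 with at least 20 UMIs), 5 of 108 tested genes were at least 2-fold lower in members carrying the Utx-deleted label (4.63%, against 1.09% of all tested genes) and 0 were at least 2-fold higher (against 0.561%). The median log2 ratio was -0.15, against -0.01 for all genes with 20 UMIs. Under hashtag 2 alone this median was 0.01.

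In the list of surface adhesion and platelet receptors 4 of 17 tested genes were at least 2-fold lower (1.09% of all tested genes were), and the median log2 ratio was -0.43. The list was lower outside the members too, with a median of -0.68 in Car1-dominant cells (406 and 230 CPM summed) and sums of 304.5 and 145 CPM in other cells under the neutrophil limit. Gp5 was at 97.4 and 74.6 CPM in the control hashtags and 49.4 and 32.6 in those labelled Utx-deleted, a log2 ratio of -1.16 (-1.58 to -0.78). Gp9 was at 38.1 and 31.99 CPM against 20.01 and 12.5, with a log2 ratio of -1.17 (-1.87 to -0.58). Both populations labelled Utx-deleted lay below both of control for Gp5 and for Gp9, while hashtag 1 taken alone gave log2 ratios of -0.95 and -0.86, short of 2-fold. Of the other subunits of that receptor, Gp1ba had 26 and 6 UMIs and Gp1bb 74 and 48 UMIs (30.3 and 26.8 CPM, log2 ratio -0.17, -0.73 to 0.37). Gp5 and Gp9 were also lower in each Pf4 bin, with Gp5 at 100 and 50.2 CPM among members with 50 or more Pf4 UMIs. The lower bins of the library labelled Utx-deleted held few UMIs. Gp5 had 1 and Gp9 had 2 over the 5 members with 5 to 9 Pf4 UMIs, and 15 and 7 at 10 to 49. Ptger3, above, and Lat, an adaptor of platelet collagen signalling (58.7 and 53.3 CPM against 20.01 and 21.1, log2 ratio -1.43, and -2.55 with thinning), were the other 2.

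Neither fibrinogen receptor chain reached 2-fold over the whole libraries, and the hashtags of Itga2b overlapped. Itgb3 was at 116 and 99.5 CPM in control, against 180 and 219 in the other library, a log2 ratio of 0.88 (0.65 to 1.11) that did not reach 2-fold (1.13 under hashtag 2 alone, 1.47 with thinning). It was higher in each Pf4 bin, at 78.3 and 157, 62.3 and 132.5, and 149 and 244 CPM. Its partner Itga2b had the log2 ratio of -0.17 given with the CD41 tag. F2r, the thrombin receptor PAR1, was at 222 and 132 CPM (-0.74), and Treml1, a receptor stored in alpha granules, at 80.6 and 54.7 CPM (-0.55).

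Among alpha-granule and secreted proteins 1 of 8 tested genes was past 2-fold, a single gene, against 1.65% of all tested genes. Mmrn1, multimerin of the alpha granule that binds factor V, was at 116 and 73.5 CPM in control and at 29.4 and 26.9 in the other library, a log2 ratio of -1.84 (-2.33 to -1.42), and was found in 71 of 93 and 16 of 48 members, against 0.195% and 0.0573% of late neutrophil-rich cells. The 5 members with the most Mmrn1 held 66.0% of its UMIs in the library labelled Utx-deleted and 17.7% in control. Vwf was at 160 and 119 CPM (-0.43, -0.68 to -0.19) with overlapping hashtags. Angpt1, the Tie2 ligand, was among the most abundant list genes at 2715 and 3004 CPM (0.15), Tgfb1 was at 300.2 and 319 CPM, and Srgn, the granule proteoglycan core, at 897 and 645 CPM (-0.47). Selp, P-selectin, was at 56.4 and 77.6 CPM (0.46, 0.11 to 0.81; 1.43 with thinning).

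In the remaining megakaryocyte lists 0 tested genes were past 2-fold in either direction, near the 1.65% of all tested genes: 0 of 11 in the thrombopoietin pathway, 0 of 21 transcription factors, 0 of 11 genes of granule biogenesis, 0 of 17 of the cytoskeleton and 0 of 23 of platelet signalling. Their median log2 ratios were -0.15, -0.01, -0.18, -0.14 and -0.04. The transcription factors Runx1 (1448 and 1701 CPM), Mef2c (1432 and 1737 CPM) and Fli1 (1202 and 1433 CPM) had log2 ratios of 0.23, 0.28 and 0.25, and Gata1 was at 57.3 and 48.0 CPM (-0.25, -0.66 to 0.14). Rab27b was at 434 and 508 CPM and Cavin2 at 259 and 226 CPM, and their hashtags overlapped. Trpc6, a cation channel of platelets, was at 503 and 656 CPM (0.38).

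**Figure D5:**
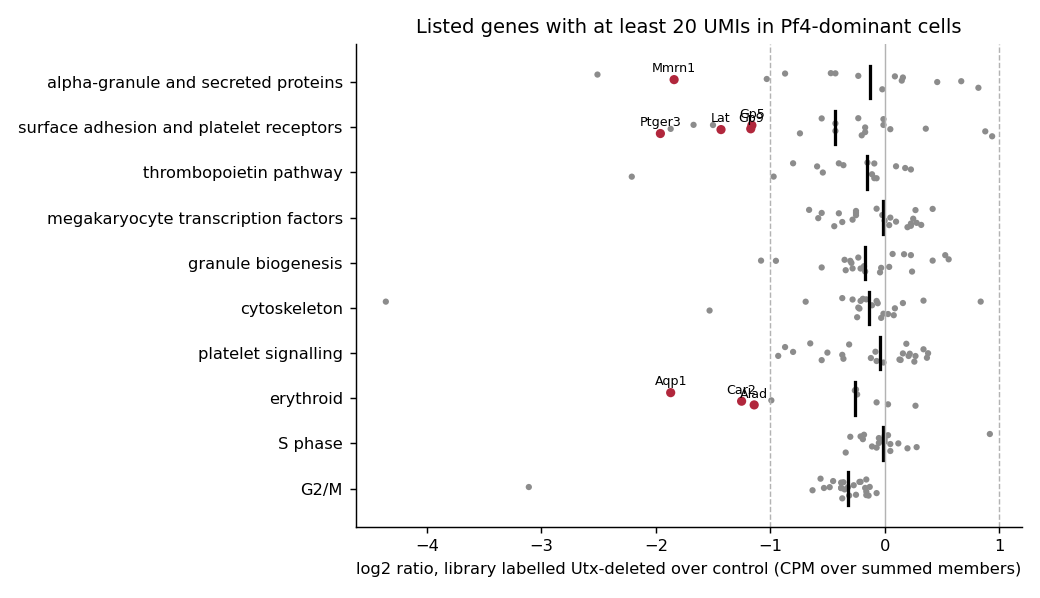
Log2 ratio (library labelled Utx-deleted over control, horizontal axis) of each gene with 20 UMIs or more in all from the lists drawn. Black bars are list medians and dashed lines mark 2-fold. Red points, named, are past 2-fold with 100 UMIs or more, and grey points further out have fewer; 4 red points are from the list of surface adhesion and platelet receptors, 1 is an alpha-granule gene and 3 are erythroid genes.

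Part of the erythroid genes were lower in the library labelled Utx-deleted; Car1 itself was used by the rule. Of 8 tested, 3 were at least 2-fold lower (1.09% of all genes were) and 0 higher. Car2 was at 380 and 483 CPM in the control hashtags and 127 and 209 in the others, a log2 ratio of -1.25 (-1.44 to -1.07), Aqp1 had 104 and 20 UMIs, and Alad, an enzyme of haem synthesis, had 80 and 26 UMIs (-1.14). With each cell thinned to 3000 UMIs Car2 was at -0.38 and Aqp1 at -0.97, and under hashtag 1 alone Alad was at -0.52. Mfsd2b, a sphingolipid exporter of red cells and platelets, was at 109 and 132 CPM (0.27). The summed level of the 25 erythroid genes was 840 CPM in control and 506 CPM in the other library. In other cells under the neutrophil limit the list summed to 978 and 139 CPM. In Car1-dominant cells the sums were 5088 and 5667 CPM, with a median log2 ratio of -0.63.

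Against the Car1-dominant cells, 299 of 7260 genes were at least 2-fold higher in the members in both libraries (4.12%) and 225 at least 2-fold lower (3.1%); members and neighbours were chosen by their RNA, so these counts are descriptions. The widest gaps in the control library included those of Trpc6, Mmrn1, Dlg2, the guanylate cyclase subunit Gucy1a1, Lhfp, the phosphodiesterase Pde10a, Chsy3, Itgb3 and Ehd3. Trpc6 had 1229 UMIs in the 93 control members and 1 UMI in the 112 control Car1-dominant cells, and Itgb3 had 269 and 1. Mmrn1 had 0 UMIs in the control Car1-dominant cells, so that its level in control members was at least 103-fold higher, taking the floor of 3 UMIs over those cells. Of the genes just named, Mmrn1 and Dlg2 were the pair that were also at least 2-fold lower, and Chsy3 the 1 that was at least 2-fold higher, between the members of the libraries.

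The shares of members with cell cycle transcripts differed by less than their counting intervals. With each member thinned to 3000 UMIs, at least 2 UMIs of the S phase list were found in 82 of 93 (88.2%) and 41 of 48 (85.4%) members, a difference of -2.76 points (-16.3 to 8.19), and of the G2/M list in 65 of 93 (69.9%) and 36 of 48 (75%), a difference of 5.11 points (-11.0 to 19.3). Without thinning the shares were 100% and 100%, and 92.5% and 97.9%. In the summed counts 25 of 25 G2/M genes had a log2 ratio below 0 (51.7% of all genes with 20 UMIs did), with a median of -0.32, and their summed level was 4329 and 3506 CPM, while 0 were past 2-fold. Mki67, the proliferation antigen, was at 551 and 426.5 CPM (-0.37, -0.50 to -0.24). The per-cell median of G2/M UMIs was higher in the library labelled Utx-deleted, at 45 and 104.5 without thinning and 6 and 7 with it.

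Markers of other cell types were low in most members. The neutrophil progenitor list (9 genes) held at least 1% of the UMIs of 2 control members and 1 other, and its summed level was 703 and 452 CPM, with a range over hashtags of 582 to 932 in control and 117 to 693 in the other library. Prtn3 (187 and 79.8 CPM) and Ctsg (158 and 69.2 CPM), azurophil granule proteases, were at least 2-fold lower (log2 ratios -1.22 and -1.18). With barcodes of both hashtags kept, however, Prtn3 turned to 0.41 and Ctsg to -0.04, and thinning turned Prtn3 to 1.20. Without the members rich in neutrophil progenitor genes Ctsg was -0.38, while Prtn3 stayed lower. Other settings widened the difference, to -2.84 and -2.75 under hashtag 1 alone, -2.38 and -2.68 without the top Scrublet scores and -3.98 and -3.88 with 50 or more Pf4 UMIs. Without these 3 members 34 genes were higher and 68 lower over all genes, against 36 and 70. The monocyte list (7 genes) summed to 59.7 and 27.4 CPM, the macrophage list (6 genes) to 2.05 and 0.558 CPM, the B cell list (7 genes, 5 of them at 0 in each library) to 2.86 and 2.23 CPM, and the basophil or mast cell list (8 genes) to 20.5 and 6.70 CPM. In the T or NK cell list (6 genes, 3 at 0 in each library), Nkg7 alone was tested and was at 211 and 246 CPM in control, against 82.7 and 64.3 in the other library, a log2 ratio of -1.62 (-1.92 to -1.35). Nkg7 was also found in 83.9% of control Car1-dominant cells, where it was the 1 gene of the list measured, with a log2 ratio of -1.87. In 3 more lists a single gene was at least 2-fold lower, against 1.09% of all tested genes. Among interferon-stimulated genes it was 1 of 4 tested, Ifitm1 (33.5 and 14.0 CPM). That list had a median log2 ratio of -0.60 with 8 of 10 genes below 0, summed to 1021 and 690.5 CPM, and was lower in each Pf4 bin (864 and 700, 1028 and 686, and 1068 and 691 CPM); in Car1-dominant cells its sums were 1143 and 1551 CPM and in other cells under the neutrophil limit 890 and 604. Among immediate early genes it was 1 of 5, Jun (45.0 and 17.3 CPM), and among cell cycle regulators 1 of 7, the cyclin gene Ccnd1 (49.48 and 20.7 CPM). Thinning gave log2 ratios of -0.38 for Ifitm1 and -0.70 for Ccnd1, and hashtag 1 alone -0.23 for Jun.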

How the data were processed

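Counts of UMIs per gene and antibody tag were deposited by the authors for each library, raw and not normalized, for 32285 genes and 15 tags. Per the submitters' processing notes they came from Cell Ranger 7.1.0 and mm10; how cells were called is not given in the sources used here. Coordinates are GENCODE M21 on GRCm38, which holds 99.6% of the gene IDs, and promoters are RefSeq GRCm38.p6.

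Barcodes were filtered by genes, mitochondrial UMIs and hashtags as described in the report. Doublets were handled by the hashtag filter alone (380 and 699 barcodes left out); the automatic Scrublet threshold marked 0.0282% and 0.0143% of barcodes and had not worked, so leaving out the top 6% of scores was an alternative. UMIs were summed over members, 1 UMI was added to each sum, and the log2 ratio of CPM was taken. A gene counted as higher or lower at 2-fold with at least 100 UMIs over both libraries, leaving out the 8 genes of the rule; list medians used genes with at least 20. The rule was tested on simulated data for this comparison with 32285 genes in the step. Of 200 genes changed 4-fold 86.5% were recovered, and 0 of 6171 unchanged genes passed. The simulated counts held Poisson counting error alone, without spread between cells, hashtags or libraries. The 0 is therefore no rate of wrong calls in these data, where genes also passed 2-fold between hashtags inside a library.

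Genes named are those of the gene lists, Kdm6a, the 10 highest and 10 lowest ratios past 2-fold with hashtags apart and the top 5 members under 50% of UMIs in the higher library, and the 10 widest gaps to Car1-dominant cells. Some genes that this rule names are not reported here. C77080, Gm30382, Eda and Fgf3 fall outside it and were named after their values were seen. The members and lists were chosen with earlier results of these data known. Python 3.11.15, numpy 2.4.6, scipy 1.17.1, scanpy 1.11.5 and edgeR 4.0.16 (TMM factors alone) were used.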

Additional observations from a re-analysis of the deposited data

Results flagged for a closer look

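Between the libraries 4 values lay on opposite sides of 0 in Pf4-dominant cells and in other cells under the neutrophil limit, with both hashtags on the same side in each. For tags this was required of both the share and the mean of raw UMIs, and for genes a ratio of at least 2-fold each way, at least 100 UMIs and hashtags that did not overlap. None of these differences between kinds of cell was tested. The CD41 tag share had a log2 ratio of 1.08 in the members and -0.31 in the other cells. The Gr1 tag had -1.09 and 0.67, but a control member with 1526 Gr1 UMIs holds much of the tag, and without it the value in the members was -0.44. C77080 had a log2 ratio of 1.71 in the members (13.1 and 43.5 CPM, from 32 and 78 UMIs) and -1.51 in the other cells (8.28 and 2.89 CPM). Fgf3, a fibroblast growth factor gene, had 1.01 in the members (20.4 and 41.3 CPM, from 50 and 74 UMIs) and -1.80 in the other cells (8.80 and 2.51 CPM).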

How the results depend on the processing

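No paired analysis was possible because each group holds 1 library. The difference in share of Pf4-dominant cells was below 0 in 12 of 12 alternatives; it was -0.216 points (0.624% and 0.409%) with cells thinned to 3000 UMIs, -2.36 with barcodes under the neutrophil limit as the denominator, -1.22 under hashtag 1 and -0.0817 under hashtag 2. Genes at least 2-fold higher numbered 19 under hashtag 1, and genes lower 25 under hashtag 2; members with 50 or more Pf4 UMIs gave 14 higher and 38 lower, a minimum of 20 UMIs 195 and 342, a minimum of 500 UMIs 2 and 12, 1.5-fold 155 and 238, and thinning 0 and 0 of the 248 genes left to test. Hashtag 1 gave 20.4% of the called genes as higher and hashtag 2 51.9%, against 34.0%. List medians moved for the cytoskeleton, to -0.28 with thinning and 0.07 under hashtag 2, and for the thrombopoietin pathway, to 0.00 under hashtag 2, where the 7 lists together gave 0.01. The log2 ratio of the CD41 tag was 1.0 and 1.29 by hashtag, 1.63 as a centred log-ratio, 0.97 in raw UMIs and 0.73 with 50 or more Pf4 UMIs; CD150 gave -0.75 under hashtag 1, -0.76 in raw UMIs and -0.56 with 50 or more Pf4 UMIs, and CD48 gave -0.40, -0.88, -0.73 (raw UMIs) and -0.54. CD117 gave -0.32, 0.00, -0.24 and -0.26 in the same order and 0.12 as a centred log-ratio. Without the 3 members with the most Sca1 in each library its tag gave -0.73. Prtn3 turned to 0.41 with barcodes of both hashtags kept and to 1.20 with thinning, which also gave Zfhx3 0.13 and Rab27b and Fli1 -0.04 each. For these ratios the members were chosen again from the thinned counts and were fewer (shares of 0.624% and 0.409%). Gata1 kept its sign in 14 of 16 settings and ran up to 0.07. The cause was not tested. Of 43 named genes, 38 kept their sign in each of 16 settings. The 3 members rich in neutrophil progenitor genes, the members with 50 or more Pf4 UMIs and those with the most Sca1 were alternatives chosen after seeing the data. Depth limits genes under about 100 UMIs, and 48 members limit each share.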
